A study of Homo sapiens with 6 samples.

Results

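The genes of triglyceride synthesis and lipid droplets comprised 10 of the 60664 genes in the deposited counts, chosen by symbol: the synthesis enzymes GPAM, AGPAT2, LPIN1, LPIN2, DGAT1 and DGAT2, the droplet coat proteins PLIN2 and PLIN3, and the droplet lipases PNPLA2 and PNPLA3. They were measured by RNA-seq in SiHa PR cells with and without P4HA3 overexpression. SiHa is an established human cervical squamous carcinoma line, and PR cells are the parental cells from which lymph node metastatic derivatives were selected in the study. The control group held 3 libraries that the sample names call only SiHa PR. The P4HA3 overexpression group held 3 libraries of the same cells carrying P4HA3 cDNA in a lentiviral expression vector. No dose or time after transduction entered the comparison, and both groups rest on a single cell line. The question was which genes changed when P4HA3, a subunit of the collagen prolyl 4-hydroxylases, was expressed from the vector.

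Cells store fatty acids as triglyceride, which is built on glycerol 3-phosphate by acylation to lysophosphatidic acid and phosphatidic acid, removal of the phosphate to give diacylglycerol, and a last acylation to triglyceride. The product collects between the leaflets of the endoplasmic reticulum membrane and buds off as a lipid droplet coated by perilipins, and droplet lipases release the fatty acids again. Phosphatidic acid and diacylglycerol are also the branch points toward membrane phospholipids, so the same enzymes feed membranes and stores.

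Total counts ran from 21773488 to 24939948 per library, and no library of a group was a copy of another: chi-square over its degrees of freedom lay between 5.21 and 17.9 within the groups. P4HA3 itself had 62 to 93 counts in the control libraries and 44775 to 49097 with overexpression, as the labels imply. Fold changes followed GC content across the 15107 genes that had both values (Spearman's rho -0.58; genes are not independent replicates), and libraries of the same group also differed in this trend. The group difference was therefore also fitted with the trend of each library on GC content and transcript length removed, an analysis called the trend-free fit here, and its values are given for the 10 genes and for the related genes called. The GC-based trend and a change that follows GC content for another reason cannot be told apart in these groups. Of the epithelial markers, 6 of 8 were tested. The list summed to 7399 to 8517 CPM (counts scaled to a library of equal size) in control cells and 6258 to 7298 CPM with overexpression. KRT17, KRT18 and CDH1 were called lower (KRT17 not in the trend-free fit, edgeR adjusted p = 0.27), and KRT8, KRT19 and EPCAM were not called. Of all genes tested, edgeR called 11.4% lower, and 7.96% in the trend-free fit. The keratins KRT8, KRT17 and KRT18 were abundant, whereas the squamous markers KRT5 and TP63 had at most 4 and 13 counts in any library. The smooth muscle markers MYH11, CNN1 and DES had at most 9 counts, although a growth note in the labels describes smooth muscle, and the summed list lay at 103.5 to 114.4 CPM against 111.0 to 129.5 CPM, with TAGLN, at 8.84 and 17.2 CPM, the only one of the 4 tested that was called, higher. The trend-free fit also called SMTN higher (log2 fold change 0.28, edgeR adjusted p = 0.00249), and ACTG2 had 0, 1 and 30 counts in control cells and 40, 1 and 44 with overexpression. The leukocyte markers PTPRC, CD68, CSF1R and LYZ had at most 2 counts in any library, while CD14, the other marker of that list, fell from 99.9 to 45.1 CPM. Exons of CD68 share 1765 bases with a noncoding gene on the same strand, so its low counts do not show that it was absent. All 6 fibroblast markers were detected, at a summed 184.0 to 193.6 CPM in control cells and 144.3 to 184.7 CPM with overexpression, and edgeR, DESeq2 and limma-voom called 0 of them (1 at an unadjusted p under 0.05 in edgeR), while the trend-free fit called LUM lower (-0.40, edgeR adjusted p = 0.0156). The part of these markers in the results was not tested.

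Adipocyte markers matter most for genes of fat storage. ADIPOQ and LEP had 0 counts in all 6 libraries, and FABP4, CIDEA and CIDEC had at most 2. The whole adipocyte list of 7 genes, of which 2 were tested and 0 called by edgeR, DESeq2 or limma-voom (0 also at an unadjusted p under 0.05), summed to 4.35 to 4.79 CPM in control cells and 3.38 to 4.81 CPM with overexpression. The 2 tested were detected: LIPE had a mean of 3.59 CPM in control cells and 3.16 with overexpression, and PLIN1 0.88 and 0.964. The levels below were thus measured in cells in which ADIPOQ, LEP, FABP4, CIDEA and CIDEC were at or near 0. In bulk RNA, fewer cells expressing a gene and less RNA per cell cannot be told apart.

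All 10 genes had enough counts to be tested. With P4HA3 overexpression, GPAM, an enzyme of the first acylation, was the only one of the 10 called higher, and AGPAT2, DGAT1, DGAT2, PLIN2, PLIN3, PNPLA2 and PNPLA3 fell. The phosphatidate phosphatases LPIN1 and LPIN2 were not called. A gene was called at a Benjamini-Hochberg adjusted p under 0.05 in edgeR's quasi-likelihood test over 15130 genes, in which 9.36% of all genes were called higher and 11.4% lower. Here 1 of 10 was higher and 7 of 10 were lower. The 3 libraries of the 2 groups did not overlap for 8 of the 10 genes, against 40.1% of all genes tested. The median log2 fold change was -0.29 for the 10 genes and 0.01 for all genes tested. With the GC and length trends removed, 1 of the 10 was higher and 6 were lower, against 10.6% and 7.96% of all genes, and the median was -0.15 against 0.02 for all genes. The plot of levels by library shows each gene on its own axis.

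**Figure D1:**
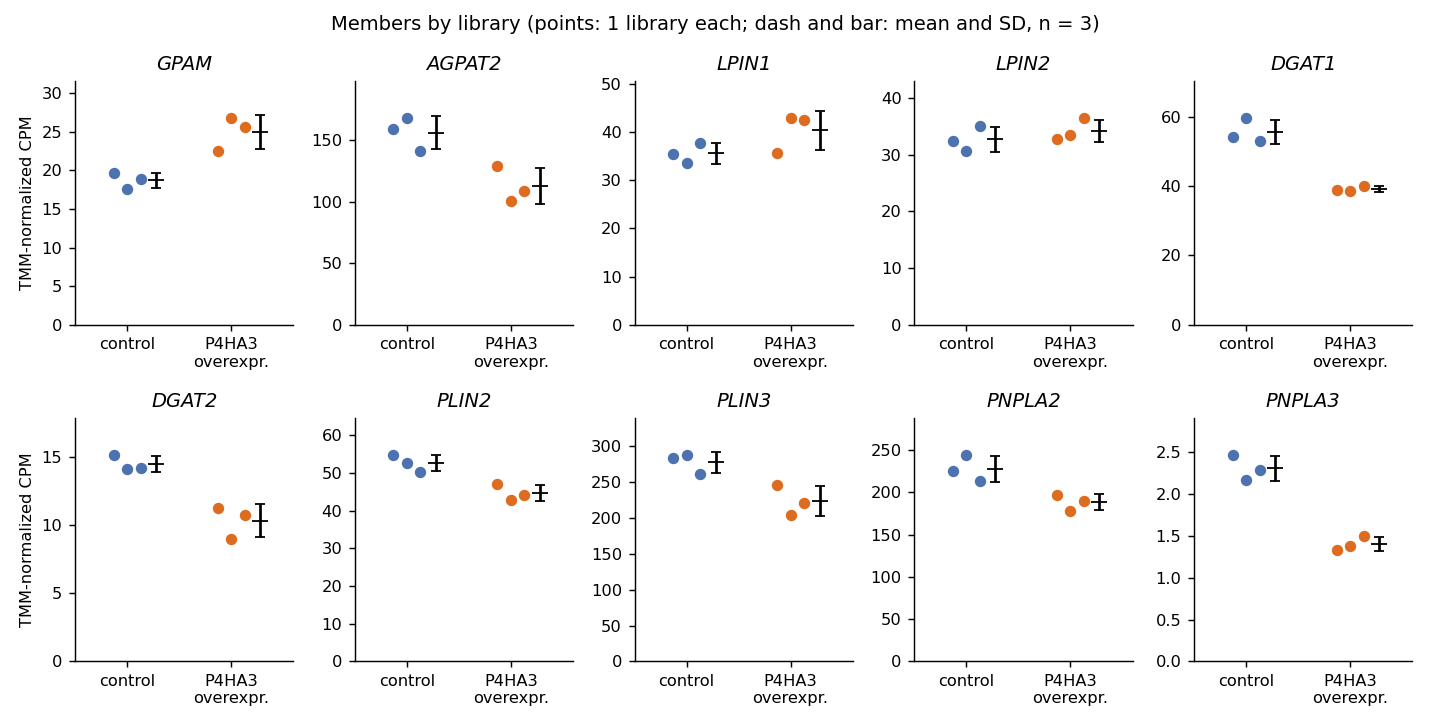
Normalized level of each of the 10 genes, in CPM on an axis that starts at 0, by library. Points are the 3 control and the 3 P4HA3 overexpression libraries, and the dash and bar beside them give the mean and SD. GPAM is higher in all 3 overexpression libraries than in any control library, the LPIN1 and LPIN2 groups overlap, and the other 7 genes are lower in all 3 overexpression libraries.

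Divided by the length of the canonical transcript, the control levels ran from 0.837 ± 0.0556 CPM per kb for PNPLA3 to 124 ± 6.38 CPM per kb for PLIN3 (SD, n = 3). PLIN3 was followed by AGPAT2 (101 ± 8.71 CPM per kb) and PNPLA2 (94.1 ± 6.49 CPM per kb), whose libraries overlapped and which therefore have no firm order. PLIN2 came next at 27.7 ± 1.17 CPM per kb and DGAT1 at 15.2 ± 0.966 CPM per kb. LPIN1 (6.54 ± 0.39 CPM per kb) and DGAT2 (6.02 ± 0.236 CPM per kb) again overlapped, and LPIN2 (5.41 ± 0.363 CPM per kb) and GPAM (2.94 ± 0.161 CPM per kb) lay under them. PLIN3, AGPAT2 and PNPLA2 thus lay far above GPAM, an enzyme of the first acylation. GPAM was not the most abundant of that step, since GPAT4 had 9.79 CPM per kb in control cells. With P4HA3 overexpression, PLIN3 stayed first at 100 ± 9.33 CPM per kb and PNPLA3 last at 0.509 ± 0.0313 CPM per kb. DGAT2 (4.29 ± 0.5 CPM per kb) moved below LPIN2 (5.66 ± 0.324 CPM per kb) and then overlapped with GPAM (3.92 ± 0.342 CPM per kb). Part of this order rests on the length used. Per kb of all annotated exons, DGAT1 (13.4 CPM per kb) lay above PLIN2 (10.5 CPM per kb) in control cells, LPIN2 (4.44 CPM per kb) above LPIN1 (3.00 CPM per kb), and DGAT2 (1.83 CPM per kb) already beside GPAM (1.91 CPM per kb), with PLIN3 again first and PNPLA3 last.

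GPAM encodes the mitochondrial glycerol-3-phosphate acyltransferase, which makes lysophosphatidic acid. Its gene (ENSG00000119927, chromosome 10 from 112149865 to 112215377, minus strand, GRCh38 as for all genes here) gave few counts, 375 to 649 per library. The level was 19.6, 17.6 and 18.9 CPM in control replicates 1, 2 and 3, and 22.5, 26.8 and 25.6 CPM in the overexpression replicates, so that every overexpression library lay above every control library. Its log2 fold change was 0.42 (standard error 0.0892, edgeR adjusted p = 0.0128), a rise of 33.4%. With the GC and length trends removed it was 0.23 on the same scale (adjusted p = 0.0398 from edgeR). Leaving out control replicate 2 raised the adjusted p to 0.0774, and leaving out P4HA3 overexpression replicate 3 raised it to 0.0661.

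The other acyltransferases of this step did not pass the test. GPAT4, an isoenzyme of the endoplasmic reticulum, had a log2 fold change of 0.04 (edgeR adjusted p = 0.62) and GPAT3 of 0.31 (edgeR adjusted p = 0.144), while GPAT2 had at most 1 count in any library. GPAM contributed 20.6% ± 0.811 of the summed level per kb of the 4 isoenzymes in control cells and 24.7% ± 2.43 with overexpression (SD, n = 3), and GPAT4 contributed 68.7% ± 1.31 and 63.4% ± 2.58. The shares of both enzymes did not overlap between the groups, and the exact permutation test (two-sided) gave p = 0.1 for each, the smallest that 3 libraries against 3 allow.

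AGPAT2, which turns lysophosphatidic acid into phosphatidic acid and is the isoform known from fat tissue, moved the opposite way. It is encoded on chromosome 9 from 136673143 to 136687457 on the minus strand (ENSG00000169692). Control replicates 1, 2 and 3 had 159, 168 and 141 CPM and the overexpression replicates 129, 101 and 108 CPM, without overlap. The log2 fold change was -0.47 (standard error 0.0932, edgeR adjusted p = 0.00982), and the level fell by 27.7%. With the trends removed it was -0.17 (edgeR adjusted p = 0.0246), and the call was lost without control replicate 2 (adjusted p = 0.0722) or P4HA3 overexpression replicate 3 (adjusted p = 0.0504). Transcripts of AGPAT2 are 66.0% GC, and for genes in the same interval of GC content the median log2 fold change was -0.27.

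Within its family AGPAT2 went from 60.5% ± 2.25 to 53.1% ± 3.14 of the summed level per kb of AGPAT1 to AGPAT5 (SD, n = 3), and the share of AGPAT3 went from 15.2% ± 0.923 to 19.5% ± 1.56 (exact permutation p = 0.1 for both). AGPAT3 itself had a log2 fold change of 0.07 (edgeR adjusted p = 0.375) and AGPAT1 of -0.15 (edgeR adjusted p = 0.0783), which were 0.11 and 0.03 in the trend-free fit. The ratio of GPAM to AGPAT2 per kb was 0.0293 ± 0.00354 in control cells and 0.0548 ± 0.0112 with overexpression, 1.87-fold higher and without overlap between the groups (exact permutation p = 0.1). This ratio and the others given here were chosen after the fold changes of the members had been seen, and their genes differ in GC content (41.1% for GPAM).

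LPIN1 and LPIN2 remove the phosphate from phosphatidic acid to give diacylglycerol, and lipin 1 is also known as a transcriptional coactivator. LPIN1 (ENSG00000134324, chromosome 2 from 11677595 to 11827409, plus strand) had 35.6, 33.5 and 37.8 CPM in control cells and 35.8, 42.9 and 42.5 CPM with overexpression. Its first overexpression library lay among the control libraries and the other 2 above them, and the log2 fold change of 0.18 (standard error 0.0858) had an edgeR adjusted p of 0.145. Without P4HA3 overexpression replicate 1 it was 0.26 with an adjusted p of 0.018, and in the trend-free fit 0.12 with one of 0.176. LPIN2 (ENSG00000101577, chromosome 18 from 2885296 to 3013144, minus strand) had 32.4, 30.7 and 35.1 CPM against 32.8, 33.5 and 36.5 CPM. The groups overlapped, the log2 fold change was 0.06 (standard error 0.0773, edgeR adjusted p = 0.568, and 0.03 in the trend-free fit), and no alternative analysis called the gene. LPIN2 kept 32.2% of the summed lipin level per kb in both groups, while the share of LPIN1 was 38.9% ± 0.837 in control cells and 42.1% ± 2.11 with overexpression (SD, n = 3, exact permutation p = 0.1). The share of LPIN3 was 28.9% ± 1.84 and 25.6% ± 1.14. Its log2 fold change was -0.11 (edgeR adjusted p = 0.375), and 0.05 in the trend-free fit. The shares of this and the other families come from levels from which the trends were not removed.

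DGAT1 and DGAT2 catalyse the last and committed step, the acylation of diacylglycerol to triglyceride, and are unrelated in sequence. DGAT1 (ENSG00000185000, chromosome 8 from 144314584 to 144326910, minus strand) had 54.2, 59.6 and 52.9 CPM in control replicates 1, 2 and 3 and 38.9, 38.5 and 40.1 CPM in the overexpression replicates. The overexpression libraries were close to each other and well under the lowest control library. The log2 fold change was -0.50 (standard error 0.0671, edgeR adjusted p = 0.00177), a level that fell by 29.4%. DGAT1 was called in all 16 alternative analyses, with the trends removed at -0.27 (edgeR adjusted p = 0.00338) and with each library left out at -0.53 to -0.45. Among the 10 genes this held only for DGAT1.

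DGAT2 (ENSG00000062282, chromosome 11 from 75759512 to 75801535, plus strand) was less abundant, with 15.2, 14.1 and 14.2 CPM in control cells and 11.3, 8.98 and 10.7 CPM with overexpression. The groups did not overlap, and the log2 fold change was -0.49 (standard error 0.103, edgeR adjusted p = 0.0122), or -0.35 with the trends removed (edgeR adjusted p = 0.0135). The adjusted p was 0.0622 without control replicate 1 and 0.0621 without control replicate 2. Both enzymes fell by a like amount. The ratio of DGAT2 to DGAT1 per kb was 0.397 ± 0.0335 in control cells and 0.4 ± 0.0431 with overexpression (SD, n = 3, exact permutation p = 1), and the share of DGAT2 in the pair was 28.4% ± 1.73 and 28.5% ± 2.21. That share rests on canonical transcript lengths. With all annotated exons as the length it was 12.0% ± 0.897 and 12.1% ± 1.15.

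**Figure D2:**
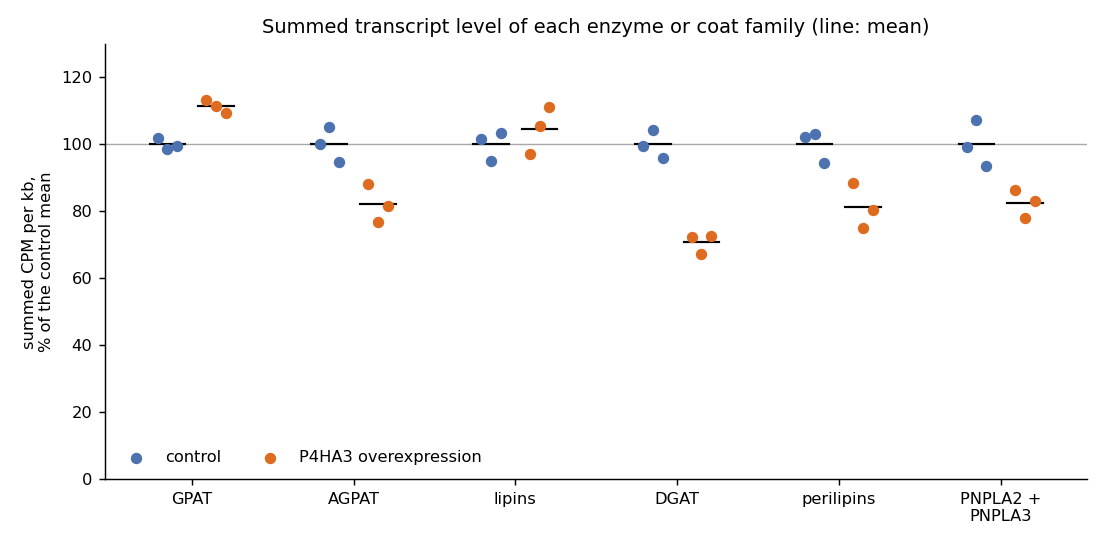
Summed level per kb of each family, in percent of the control mean, on an axis that starts at 0. Points are the 3 libraries of each group and lines the means. The DGAT pair lies lowest with P4HA3 overexpression, at a mean ratio of 0.707 to control, the AGPAT family, the perilipins and the PNPLA2 and PNPLA3 pair lie below all control libraries, the GPAT family lies above them, and the lipins overlap.

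Summed by step, the glycerol-3-phosphate acyltransferases went from 14.3 ± 0.24 to 15.9 ± 0.276 CPM per kb (SD, n = 3), and the AGPAT family from 166 ± 8.67 to 137 ± 9.47 CPM per kb. The lipins had 16.8 ± 0.752 and 17.6 ± 1.2 CPM per kb, with overlapping groups. The DGAT enzymes went from 21.2 ± 0.895 to 15.02 ± 0.656 CPM per kb, a ratio of 0.707 and the lowest of the 6 families summed. The perilipins had a ratio of 0.814 and PNPLA2 with PNPLA3 a ratio of 0.826. The exact permutation p was 0.4 for the lipins and 0.1 for each of the other 5 families, the smallest that the design allows. These sums were added after the values of the members had been seen, and they are sums of levels from which the trends were not removed. PNPLA2, which made up 99.1% of the last sum in control cells, had a log2 fold change of 0.00 in the trend-free fit, and AGPAT2, the main part of the AGPAT sum, one of -0.17.

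PLIN2 and PLIN3 coat droplets in most cell types, PLIN2 as a protein that is stable only on droplets and PLIN3 as one that moves between the cytosol and nascent droplets. PLIN2 (ENSG00000147872, chromosome 9 from 19108375 to 19149290, minus strand) had 54.7, 52.7 and 50.3 CPM in control cells and 47.0, 42.8 and 44 CPM with overexpression. The groups were close but did not overlap, and the level fell by 15.1% (log2 fold change -0.24, standard error 0.0658, edgeR adjusted p = 0.0315). PLIN2 was the member that moved least among those called, and its value hardly changed when the trends were removed (-0.23, edgeR adjusted p = 0.0086). Its transcript is 47.6% GC, and for genes in the same interval of GC content the median log2 fold change was 0.05. The call was lost when control replicate 1 (adjusted p = 0.149) or 2 (0.114), or P4HA3 overexpression replicate 2 (0.0685) or 3 (0.115), was left out.

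PLIN3 (ENSG00000105355, chromosome 19 from 4838341 to 4867694, minus strand) had 283, 288 and 261 CPM in control cells and 245, 204 and 221 CPM with overexpression. No overexpression library reached the lowest control library. The log2 fold change was -0.31 (standard error 0.0734, edgeR adjusted p = 0.0178), and -0.13 with the trends removed (edgeR adjusted p = 0.0493). Without control replicate 1 or 2 the adjusted p was 0.0791 and 0.0994, and it was 0.0722 without the overexpression replicate 3. PLIN3 made up 81.5% ± 0.457 of the summed perilipin level per kb in control cells and 80.6% ± 0.735 with overexpression, and PLIN2 18.2% ± 0.452 and 19.0% ± 0.705 (SD, n = 3, exact permutation p = 0.3 for each). The coat genes of adipocytes and oxidative tissue were nearly silent: PLIN1 had 15 to 30 counts and PLIN5 at most 1.

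PNPLA2 encodes adipose triglyceride lipase, which releases the first fatty acid from triglyceride. The gene (ENSG00000177666, chromosome 11 from 818914 to 825573, plus strand) had 225, 244 and 213 CPM in control replicates 1, 2 and 3 and 197, 178 and 190 CPM in the overexpression replicates, without overlap. Its log2 fold change was -0.27 (standard error 0.0656, edgeR adjusted p = 0.0192), but 0.00 with the trends removed (edgeR adjusted p = 0.967), where the call was lost. Its transcript is 64.8% GC, and the median of the genes in the same interval of GC content was -0.27, close to PNPLA2 itself. Leaving out control replicate 1 (adjusted p = 0.0751) or 2 (0.0976), or the overexpression replicate 3 (0.0706), also ended the call.

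PNPLA3, a related droplet protein best known in the liver, was at the other end of the levels. This gene (ENSG00000100344, chromosome 22 from 43923792 to 43964488, plus strand) had 60, 46 and 56 counts in control cells and 31, 31 and 38 counts with overexpression, or 2.46, 2.16 and 2.29 CPM against 1.33, 1.38 and 1.5 CPM. Every overexpression library lay under every control library, on few counts. The log2 fold change was -0.71 (standard error 0.158, edgeR adjusted p = 0.0143), the largest of the 10 genes and the one with the largest error, and -0.62 with the trends removed (edgeR adjusted p = 0.0214). DESeq2 gave an adjusted p of 0.0642, and edgeR one of 0.0696 without control replicate 1 and 0.0552 without control replicate 2. The ratio of PNPLA3 to PNPLA2 per kb was 0.00893 ± 0.00101 in control cells and 0.00655 ± 0.00055 with overexpression (SD, n = 3, exact permutation p = 0.1).

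**Figure D3:**
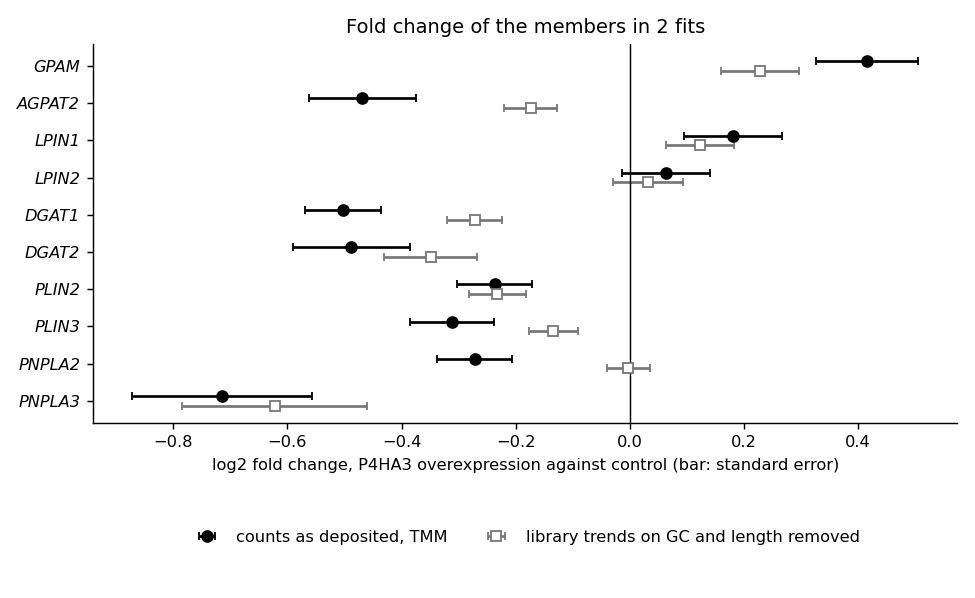
Log2 fold change of the 10 genes, P4HA3 overexpression against control, with its standard error as a bar. Filled circles are the counts as deposited with TMM normalization, and open squares the same test with each library's trends on GC content and transcript length removed. PNPLA2 moves from -0.27 to 0.00, AGPAT2, PLIN3, DGAT1 and GPAM move toward 0, and PLIN2 stays near -0.23.

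The 10 genes span a wide range of GC content, from 41.1% for GPAM to 66.0% for AGPAT2, which is the range over which the median fold change of all genes itself went from positive to negative. The only gene that rose was also the one with the lowest GC content. In their own intervals of GC content, the median log2 fold change over all genes was 0.19 for GPAM, -0.23 for DGAT1, -0.12 for DGAT2, -0.16 for PLIN3 and -0.07 for PNPLA3. LPIN1 and LPIN2 lie where this median was near 0, at 0.05 and 0.03. The part of the trend in the results was not tested beyond the fit without it.

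**Figure D4:**
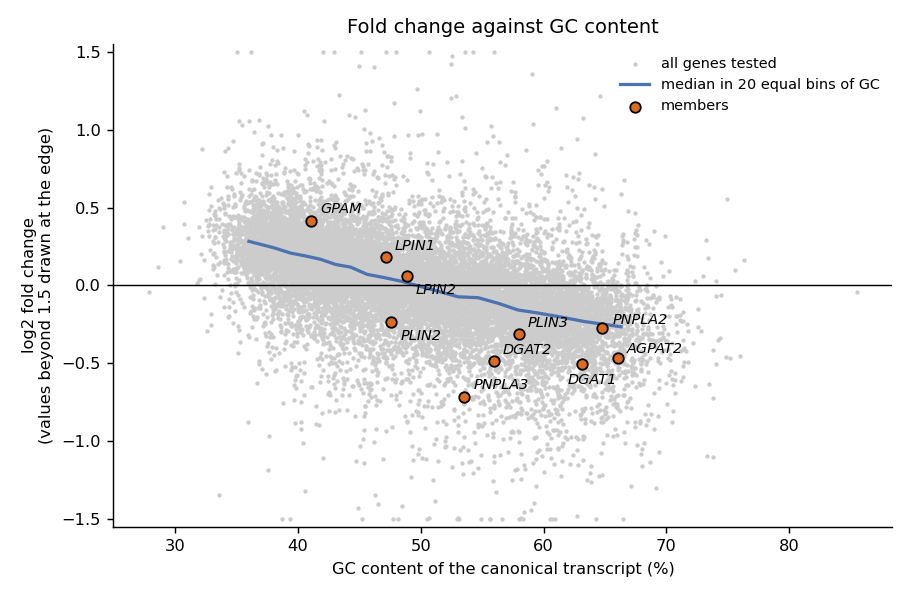
Log2 fold change against the GC content of the canonical transcript, in percent. Grey points are the genes tested, with values beyond 1.5 drawn at the edge, the line is the median in 20 intervals with equal numbers of genes, and orange points are the 10 genes. PNPLA2 lies on the line and LPIN2 close to it, GPAM and LPIN1 lie above it, and PNPLA3, DGAT2, PLIN2, DGAT1, AGPAT2 and PLIN3 lie below it.

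Promoter windows of 250 bases before the start of transcription were at hand in RefSeq (GRCh38.p14) for 7 of the 10 genes. They were searched on both strands for the E-box CACGTG, bound by MLX and USF proteins, for the GC box GGGCGG, and for the CCAAT and TATAAA boxes, which do not overlap each other in letters. The last 160 bases before the start are shown for the 5 genes that were called and have a window, since 1 of them rose and the other 4 fell. They run 5′ to 3′ on the strand of the gene and capitals mark every match. GPAM is at chr10:112183766-112183925 (minus), AGPAT2 at chr9:136687458-136687617 (minus), PLIN2 at chr9:19127493-19127652 (minus), PLIN3 at chr19:4867668-4867827 (minus) and PNPLA2 at chr11:818754-818913 (plus). The windows of GPAM and PLIN2 lie inside the gene spans given above, so they precede a start other than the outermost annotated one. No window at another start of these genes was searched.
GPAM: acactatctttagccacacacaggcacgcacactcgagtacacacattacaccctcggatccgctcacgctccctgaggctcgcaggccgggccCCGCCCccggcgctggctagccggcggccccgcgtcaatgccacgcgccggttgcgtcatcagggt
AGPAT2: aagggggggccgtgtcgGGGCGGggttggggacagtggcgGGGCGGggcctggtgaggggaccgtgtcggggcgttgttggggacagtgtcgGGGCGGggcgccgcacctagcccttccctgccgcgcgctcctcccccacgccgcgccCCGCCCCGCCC
PLIN2: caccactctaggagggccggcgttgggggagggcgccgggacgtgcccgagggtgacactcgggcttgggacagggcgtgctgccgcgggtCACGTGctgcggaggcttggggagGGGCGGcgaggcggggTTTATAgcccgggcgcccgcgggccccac
PLIN3: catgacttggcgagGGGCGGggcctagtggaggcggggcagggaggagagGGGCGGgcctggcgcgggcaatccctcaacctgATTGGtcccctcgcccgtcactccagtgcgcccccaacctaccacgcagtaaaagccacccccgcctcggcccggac
PNPLA2: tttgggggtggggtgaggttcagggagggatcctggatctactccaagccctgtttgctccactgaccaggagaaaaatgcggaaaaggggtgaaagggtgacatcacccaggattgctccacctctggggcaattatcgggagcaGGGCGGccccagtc

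All 5 windows held a GC box, which 42.5% of the 34943 windows in RefSeq held. The 5 windows were 58.4% (PNPLA2) to 78% GC (PLIN2), and the share over all windows was not matched for GC content. AGPAT2 had 6 GC boxes in the full 250 bases, PLIN2 and PLIN3 had 2 each, and GPAM, the gene that rose, and PNPLA2 had 1 each. Of the genes not called, LPIN1 had 0, 1 and 4 in its windows and LPIN2 had 0 and 4. An E-box stood in PLIN2 and in 1 of the 2 windows of LPIN2 (6.32% of all windows), a TATA box in PLIN2 (10.8%) and a CCAAT box in PLIN3 (32.0%). These are matches of letters and carry no measurement of binding.

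Around these 10 genes, 71 other genes of the pathway were listed by role, and 57 of them had enough counts to be tested. Of the 57, 4 rose, 9 fell and 44 were not called, with a median log2 fold change of -0.08. Those calls are 7.02% and 15.8% of the genes tested in these lists, near the 9.36% and 11.4% of all genes. The trend-free fit called 3 higher and 8 lower. Among the 8 tested that supply or acylate glycerol 3-phosphate, the 3 of phosphatidate phosphatase and its activator, and the 2 of monoacylglycerol and sterol acylation, edgeR, DESeq2 and limma-voom called 0, and AGPAT1 alone had an unadjusted p under 0.05 in edgeR. G0S2 and SLC27A1 were the 2 related genes called in each of the 6 fits that left out a library, and without control replicate 2 they were the 2 called lower, with 0 called higher. MOGAT2 and MOGAT3, acyltransferases of the intestinal route to triglyceride, had 0 counts in all 6 libraries, and MOGAT1 at most 1.

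Of the 8 droplet coat and resident genes tested, 1 rose and 2 fell. PLIN4, a coat protein with a long amphipathic repeat, fell from 1.51 ± 0.26 to 0.699 ± 0.109 CPM (SD, n = 3, log2 fold change -1.09, edgeR adjusted p = 0.0115), on 13 to 38 counts, and was not called by DESeq2 (-0.91 in the trend-free fit). CIDEB, a droplet fusion protein known from the liver, had a log2 fold change of -0.27 (edgeR adjusted p = 0.0329, and 0.0737 with the trends removed). RAB18, a small GTPase on droplets, rose by 28.4% (log2 fold change 0.36, edgeR adjusted p = 0.0128), and its call was lost with the trends removed (0.12, adjusted p = 0.186). Of the 7 genes of droplet formation tested, LDAF1, the partner of seipin, fell by 22.2% (edgeR adjusted p = 0.0136) with the same value when the trends were removed (-0.36 in both). PCYT1A, the regulated enzyme of phosphatidylcholine synthesis that binds growing droplets, rose by 13.5% (edgeR adjusted p = 0.0471, and 0.0873 with the trends removed), and neither DESeq2 nor limma-voom called it.

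Of the 9 lipolysis genes tested, G0S2, the inhibitor of the PNPLA2 lipase, had 17.7, 17.1 and 19.3 CPM in control cells and 11.8, 10.1 and 11.8 CPM with overexpression. The groups were far apart, and the level fell by 37.7% (log2 fold change -0.68, standard error 0.0963, edgeR adjusted p = 0.00232). G0S2 was called in all 16 alternatives, at -0.51 with the trends removed. The activator ABHD5 had a log2 fold change of 0.09 (edgeR adjusted p = 0.377). DDHD2, a triglyceride lipase known from neurons, rose by 21.8% (edgeR adjusted p = 0.0257, log2 fold change 0.28, and 0.14 in the trend-free fit with an adjusted p of 0.0491). In the phospholipid branch, where 12 genes were tested, CHKA, the choline kinase, rose by 16.4% (edgeR adjusted p = 0.0433, and 0.00247 in the trend-free fit, but not called by DESeq2), and PCYT2, of the ethanolamine arm, fell by 17.5% (edgeR adjusted p = 0.0368, and 0.584 with the trends removed).

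Fatty acid activation and uptake had 4 of 8 tested genes lower and 0 higher in edgeR, against 11.4% and 9.36% of all genes tested. The trend-free fit called 3 of the 8 lower and 0 higher, against 7.96% and 10.6% of all genes. DESeq2 and limma-voom also called 0 higher. At an unadjusted p under 0.05 in edgeR 1 was higher, but the share of all genes at that threshold was not computed. SLC27A1, a fatty acid transport protein, fell by 33.8% (log2 fold change -0.59, edgeR adjusted p = 0.00427, and -0.37 in the trend-free fit) and was called in all 16 alternatives. SLC27A3 fell by 28.8% (edgeR adjusted p = 0.0153) and SLC27A4 by 16.9% (edgeR adjusted p = 0.0408), but neither was called with the trends removed (adjusted p = 0.109 and 0.597). ACSL5, an acyl-CoA synthetase, fell by 12.2% (edgeR adjusted p = 0.0493), and while neither DESeq2 nor any fit that left out a library called it, the trend-free fit did (log2 fold change -0.27, adjusted p = 0.00232). CD36, the fatty acid receptor, had at most 8 counts in any library.

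**Figure D5:**
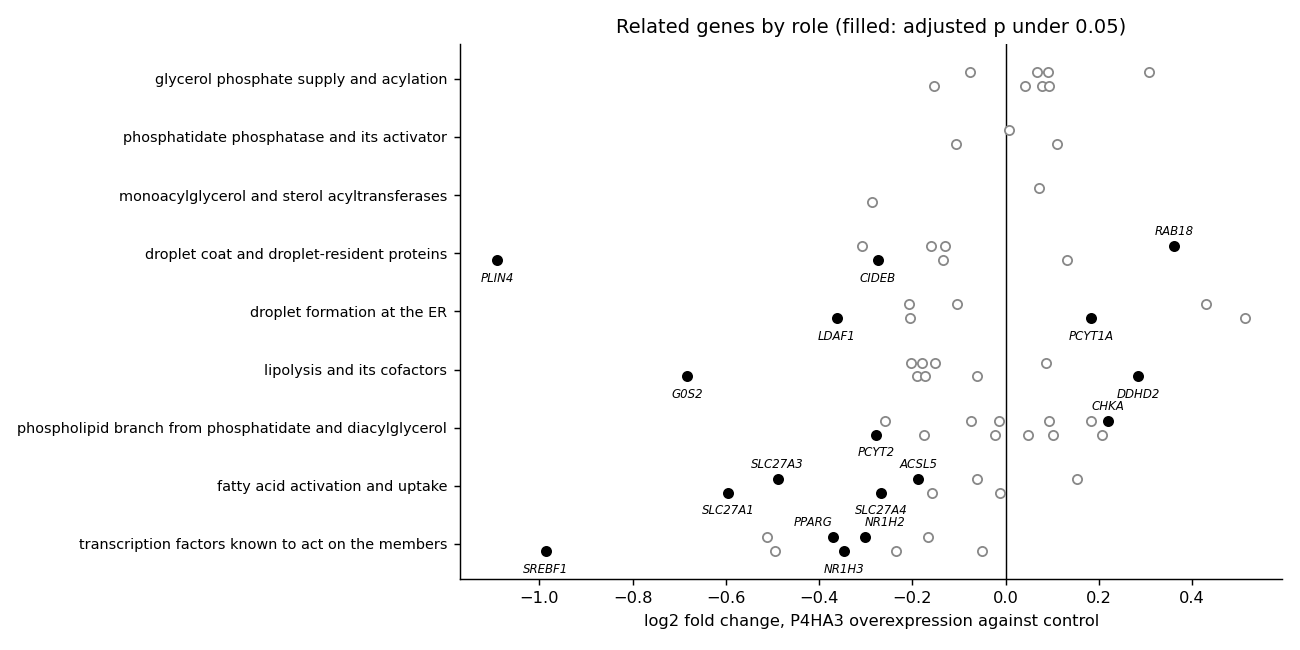
Log2 fold change of the tested related genes and transcription factors by role, P4HA3 overexpression against control. Each point is a gene, and filled points with names were called at an adjusted p under 0.05. Calls lie on both sides of 0 in the droplet, lipolysis and phospholipid lists and only below 0 in the list of fatty acid activation and uptake and in that of the transcription factors.

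Of the 9 transcription factors that are known to act on genes of the pathway, 4 fell and 0 rose in edgeR, DESeq2 and limma-voom alike. Of all genes tested, edgeR called 11.4% lower. The trend-free fit called 3 of the 9 lower and 0 higher, against 7.96% of all genes called lower. At an unadjusted p under 0.05 in edgeR, 6 fell and 0 rose, but the share of all genes at that threshold was not computed. SREBF1, the main activator of fatty acid and triglyceride synthesis genes, had 327, 355 and 309 CPM in control cells and 178, 148 and 174 CPM with overexpression. These groups were separated by a wide gap, the level fell by 49.5% (log2 fold change -0.99, standard error 0.0803, edgeR adjusted p = 0.000242), and it was -0.77 with the trends removed. PPARG, the regulator of fat storage genes, fell by 22.7% (edgeR adjusted p = 0.0112) and stood at -0.42 on the log2 scale with the trends removed. The oxysterol receptor genes NR1H2 and NR1H3 fell by 18.9% and 21.4% (edgeR adjusted p = 0.0266 and 0.0396), and neither was called with the trends removed (adjusted p = 0.281 and 0.146). MLXIPL, MLX, PPARA, PPARD and CEBPA were not called, with log2 fold changes between -0.51 and -0.05, but PPARA was called lower in the trend-free fit (-0.32, edgeR adjusted p = 0.0233). SREBF1 was called in each of the 6 fits that left out a library, PPARG in 4, NR1H2 in 3 and NR1H3 in 2.

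Some exons of the 10 genes are shared with other annotated genes, and the strand setting of the counting is not stated. Exons of DGAT1 overlap those of HSF1 on the opposite strand over 137 bases and a noncoding gene on its own strand over 444 bases. PNPLA3 shares 148 bases with SAMM50 on the same strand. Noncoding genes on the opposite strand overlap exons of PNPLA2 over 401 bases, PLIN3 over 502 bases and DGAT2 over 423 bases, and for these bases reads of the 2 genes cannot be told apart where strand was not used. The same holds for CIDEB, which overlaps NOP9 over 1577 bases, and PCYT2, which overlaps NPB over 1948 bases.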

How the data were processed

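Poly-A RNA of 6 samples of SiHa PR cells was sequenced as strand-specific paired ends. Per the supplementary methods the authors trimmed the reads, aligned them to GRCh38 with STAR and counted them per gene with HTSeq, whereas the submitters' processing notes name HISAT2. The deposited values are raw counts of 60664 Ensembl genes, without normalization, and the versions, strand setting and treatment of reads with several matches are not given in the sources used here. Identifiers were matched to GENCODE 44 (60463 of 60664), a later release than that of the authors.

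Counts were analysed here with edgeR 4.0.16 in R 4.3.3: filterByExpr (minimum count 10), TMM factors between 0.979 and 1.02, and the quasi-likelihood test (two-sided, group only) with Benjamini-Hochberg adjustment over 15130 genes. CPM use TMM-scaled library sizes, and the standard error is the log2 fold change divided by the root of F. Single ratios, shares and sums were compared by exact permutation of the 6 libraries. At these depths 1 CPM rests on a little over 20 counts, which limits PNPLA3 and PLIN4. The common biological coefficient of variation was 7.66%. Nothing says that libraries of a group came from separate cultures, so p-values measure only the spread between these samples, which may be technical.

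The alternatives were DESeq2 1.42.0, limma-voom (limma 3.58.1), normalization by RLE, by upper quartile or by library size alone, no filter or a filter of at least 10 counts in every library, an offset for GC content and transcript length (mgcv 1.9.3, smooth terms per library), a block for the replicate number, fits without each library, and an adjusted p under 0.01. The members and lists were chosen with earlier results of these data known. All members and transcription factors are given, and from each other list the up to 4 called genes with the largest log2 fold change. Genes that were not called, or were absent, were named after their values were seen. Promoter sequences are from RefSeq. A promoter motif that was also searched is not reported here.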

Additional observations from a re-analysis of the deposited data

How the results depend on the processing

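Of the 10 members, 9 kept their direction in every alternative, and PNPLA2 was at 0.00 in both fits with the offset for GC content and length. GPAM stayed the only member called higher, and 6 or 7 members were called lower, under the 3 other normalizations, either filter, DESeq2, limma-voom and the offset for GC content and length. With each library left out in turn, 1 to 7 members were called lower (2 and 1 with control replicates 1 and 2 left out, and 3 with P4HA3 overexpression replicate 3 left out) and 0 to 2 higher, and of all genes 534 to 5530, against 3147 with all libraries. The related genes called went from 2 to 13 lower and from 0 to 6 higher. At an adjusted p under 0.01, 2 members were lower and 0 higher, 2 related genes were lower and 0 higher, and 728 of all genes were called. DESeq2 called 2 related genes higher. Of all values of a member under an alternative, 138 kept their side of the threshold, 21 lost the call and 1 gained it. Shares on all annotated exons moved PNPLA3 by -0.318 points in place of -0.234 and PNPLA2 by 0.318 in place of 0.234.

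The replicate numbers did not pair the samples throughout: the correlations of same-numbered deviations were 0.25, -0.05 and 0.03 for replicates 1, 2 and 3. The highest of all pairs was 0.27, for control replicate 3 with P4HA3 overexpression replicate 2. Whether equal numbers mark a shared batch is not stated. The replicate block called the same 1 member higher and 7 lower, 10 related genes lower and 4313 of all genes, and together with the offset 5 related genes higher, 14 lower and 3800 of all genes. Depth limits the low genes: PNPLA3 at 31 to 60 counts and PLIN4 at 13 to 38 counts per library.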

Other observations

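Of the related genes, 4 that were not called in the counts as deposited were called once each library's trends on GC content and transcript length had been removed. The acyl-CoA synthetase ACSL3, which sits on nascent droplets, had a log2 fold change of -0.21 (edgeR adjusted p = 0.107) in the counts as deposited and -0.44 (adjusted p = 0.000285) with the trends removed. Its paralogue ACSL4, which prefers arachidonate, went from -0.16 (adjusted p = 0.233) to -0.41 (adjusted p = 6.3e-05), and was also called in the counts as deposited without P4HA3 overexpression replicate 2 (-0.27, adjusted p = 0.0242). HSD17B11, a droplet-resident dehydrogenase, went from -0.13 (adjusted p = 0.217) to -0.30 (adjusted p = 0.0142). CTDNEP1, the phosphatase that activates lipins, went from 0.01 (adjusted p = 0.939) to 0.20 (adjusted p = 0.0151). These 4 genes were singled out after their values had been seen. ACSL3, ACSL4 and HSD17B11 are 37.4%, 36.4% and 37.8% GC, and CTDNEP1 is 58.1% GC. In the counts as deposited the 2 groups overlapped for each of them. The adjusted p of the trend-free fit takes the removed trends as known.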
